A study of Mus musculus with 6 samples.

Results

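The gp130 cytokine receptors and their JAK and STAT effectors were examined in mouse heart through 10 genes: Il6st, Il6ra, Osmr, Lifr, Jak1, Jak2, Stat3, Stat5a, Stat5b and Socs3. Their probe sets were those annotated to exactly 1 of these genes, 28 of the 45101 on the array, and the 10 genes were among 18193 with a probe set of their own. The first group was heart tissue of C57BL/6 mice overexpressing hAT1R, the human type 1 angiotensin II receptor, on 3 arrays. The second was heart tissue of normal C57BL/6 mice, also on 3 arrays. Both groups share the C57BL/6 background, and the design text describes the animals as matched in age and sex. Neither the ages, nor the promoter or cell type that drives the transgene, nor the number of animals per array is given in the sources used here, so p-values reflect only how far these samples scattered, part of which may be technical.

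gp130, encoded by Il6st, is the signalling chain shared by the receptors for interleukin-6, leukemia inhibitory factor, oncostatin M and related cytokines. When a ligand brings the chains together, JAK kinases bound to them phosphorylate the receptors and then STAT transcription factors, chiefly Stat3, which enter the nucleus. Socs3 is among the genes that Stat3 switches on, and its protein binds gp130 and shuts the signal down. In the heart the pathway is known for cardiomyocyte growth and survival signals under load.

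Some facts of the arrays bear on all of what follows. In the instrument's records the name typed into the chip lot field was "control" on all 3 arrays labelled hAT1R transgenic and "transgene" on all 3 labelled non-transgenic. The groups here follow the sample labels, so transgenic means labelled so, and the typed names would turn the sign of every difference. The transgene itself was not analysed here. Fluidics station 2 handled the 3 transgenic arrays together with non-transgenic array 1, and station 3 handled the remaining 2 non-transgenic arrays. Xist, a marker of female tissue, exceeded log2 6 on 2 transgenic arrays and 1 non-transgenic array, so the sexes were not evenly split. For the actin controls, a gauge of RNA integrity, the 3' probe set exceeded the 5' one on the log2 scale by 0.80 to 0.94 on transgenic arrays and by 0.97 to 1.05 on non-transgenic arrays, without overlap. All 7 cardiomyocyte markers lay above the brightness filter, with a summed log2 level of 104.49 to 105.04 on transgenic arrays and 104.90 to 105.19 on non-transgenic arrays. The part of station and sex in the differences below was not tested beyond the alternatives given. No alternative took in RNA integrity, and its part was not tested.

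No gene of the pathway was called different at an adjusted p under 0.05, but Il6st was higher and Stat5a lower in the transgenic hearts on every probe set, with no overlap between the groups. The 4 Il6st probe sets differed by 0.39 to 0.60 on the log2 scale and the 2 Stat5a probe sets by -0.83 to -0.73. Jak2 was higher by 0.13 to 0.23, with no overlap on 1 of its 2 probe sets, while Stat3 and Stat5b lay close to 0. Lifr differed by -0.28 and -0.19 without overlap on 2 of its 3 probe sets, and by 0.11 with overlap on the other. Osmr and Socs3 differed upward with groups that overlapped. Of the 28 probe sets, 25 had a mean over the 6 arrays above the brightness filter at log2 3.285, the median of all probe sets, and were tested. The other 3, of Osmr, Stat3 and Socs3, read between 2.18 and 2.71 on every array and carried no test.

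Limma's moderated test, with Benjamini-Hochberg adjustment over all 22518 probe sets tested, called 0.218% of them and 0 of the 25. The 25 had adjusted p-values between 0.118 and 0.905. An unadjusted p under 0.05 was found for 7 of the 25 (higher in 4, lower in 3), against 16.4% of all probe sets, 9.41% higher and 6.98% lower. Transgenic and non-transgenic values were fully apart at 9 of the 25 (higher in 5, lower in 4), against 23% of all probe sets, 13.2% higher and 9.78% lower. Taking each gene by its brightest probe set, 3 of 10 were below an unadjusted p of 0.05, against 18.2% of all genes, and 4 of 10 did not overlap, against 25.2%. The median of the sizes of the 10 differences was 0.26, and that over all 11016 genes was 0.13. Probe sets of 1 gene read the same transcripts and are not independent: both Stat5a probe sets, both Jak2 ones, both Stat5b ones, 2 of the 4 Il6st ones, 2 of the 3 Osmr ones and all 3 of Jak1 were designed from a shared source sequence.

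**Figure D1:**
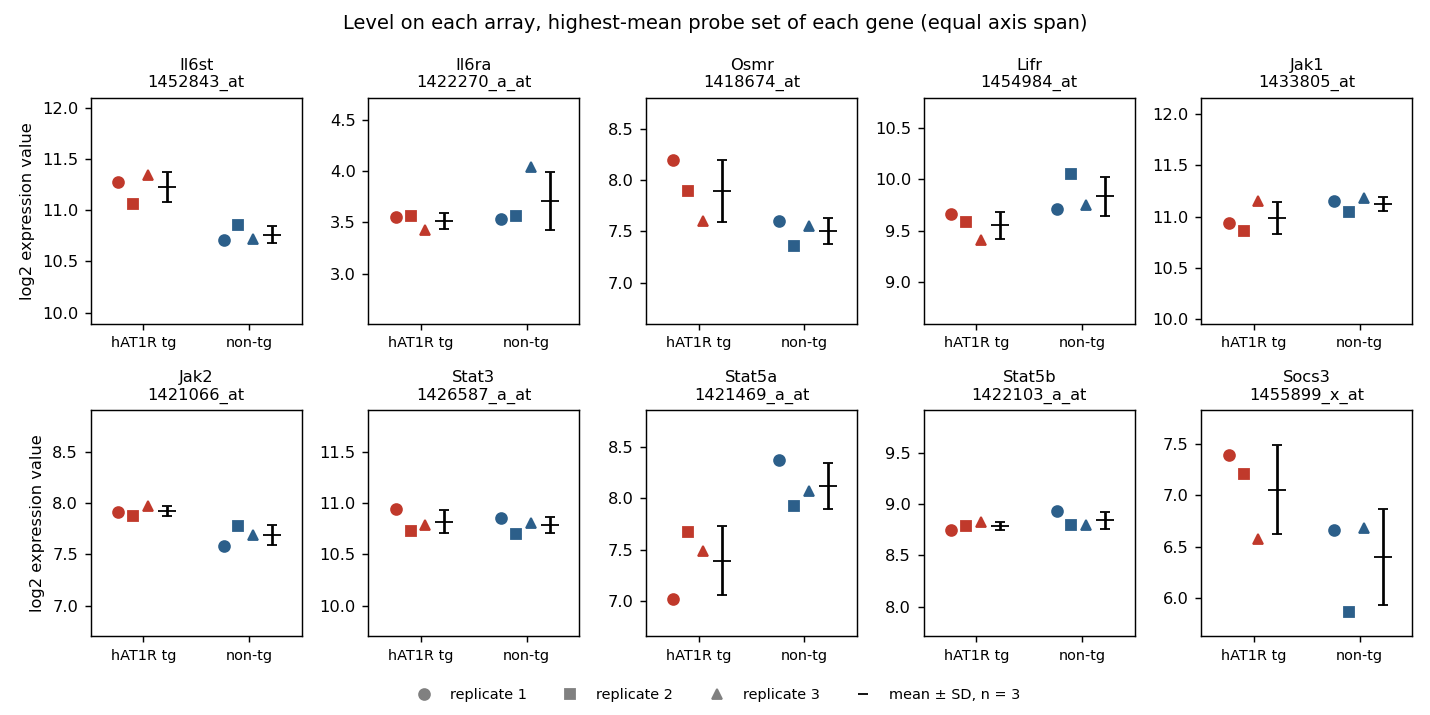
Log2 expression value (vertical axis, equal span in each panel) on each array for the brightest probe set of each gene. Red points are hAT1R transgenic arrays, blue points non-transgenic arrays, marker shapes give the replicate, and the black mark and bar give the mean and SD of 3 arrays. The groups separate for Il6st and Jak2 (transgenic higher) and for Lifr and Stat5a (transgenic lower).

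**Figure D2:**
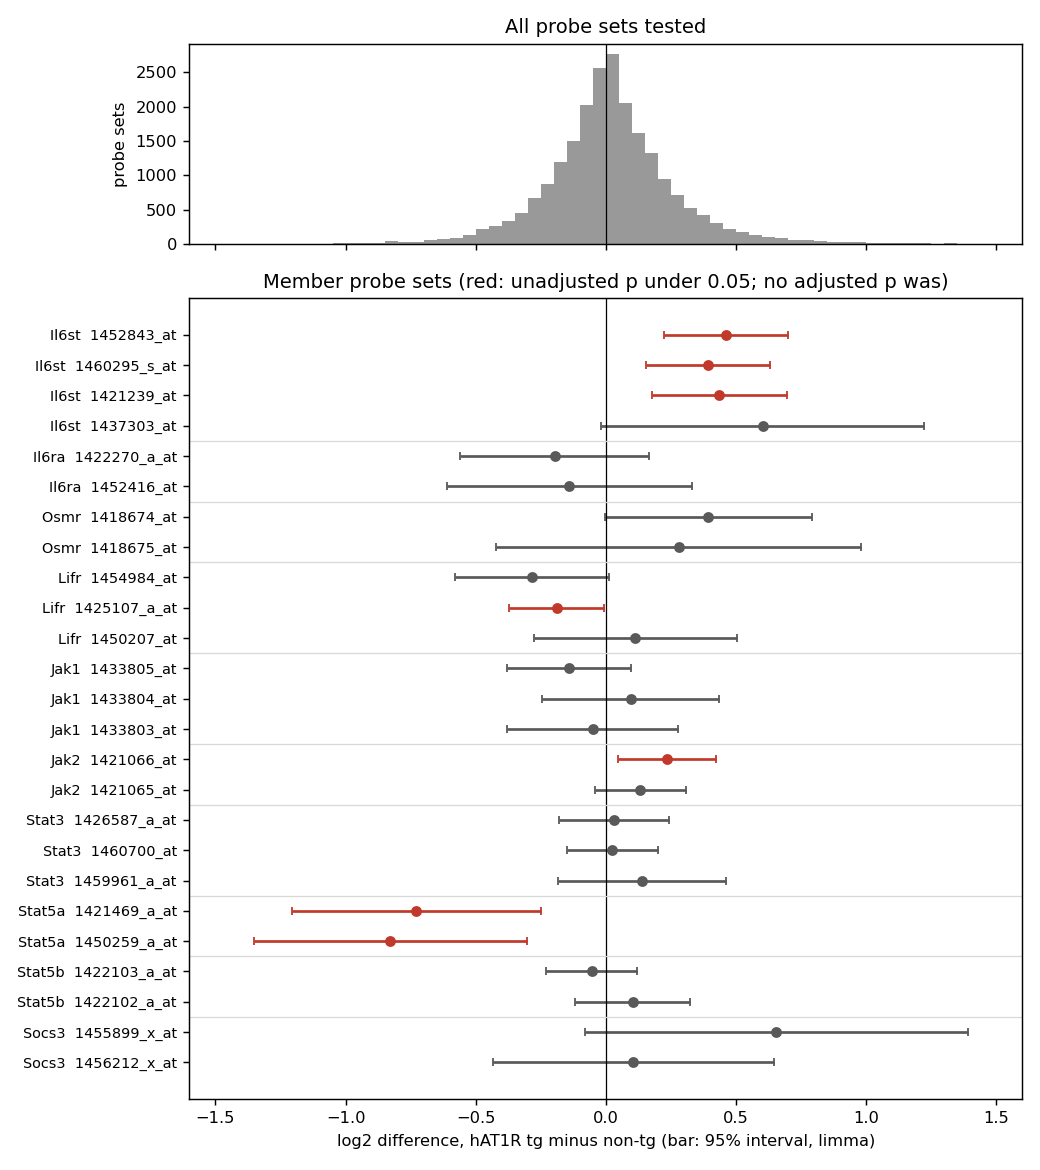
Lower panel: log2 difference, hAT1R transgenic minus non-transgenic, with its 95% interval for the 25 tested probe sets of the 10 genes, red where the unadjusted p was under 0.05. Upper panel: number of probe sets (vertical axis) by difference over all 22518 tested, drawn within the same horizontal range. The 4 Il6st values lie between 0.39 and 0.60 and the 2 Stat5a values at -0.73 and -0.83.

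The DNA just before an annotated transcription start is shown for 4 of these genes. They are Il6st and Stat5a as the genes with the clearest separation, Stat5b as the neighbour and near copy of Stat5a, and Socs3 as the Stat3 target among the members. Each line gives the 250 bases before an annotated transcription start, from RefSeq on GRCm38.p6, 5′ to 3′ on the gene's strand. Where a gene had more than 1 such start in the table, the most upstream is given. The windows are chr13:112463820-112464069 on the plus strand (Il6st), chr11:100859406-100859655 on the plus strand (Stat5a), chr11:100850582-100850831 on the minus strand (Stat5b) and chr11:117969367-117969616 on the minus strand (Socs3). The Il6st window lies just before the RefSeq span of its gene. Those of Stat5a, Stat5b and Socs3 lie within the spans of theirs (chr11:100859351-100885169, chr11:100780731-100859004 and chr11:117966079-117970336), so they are not upstream of the whole gene. Capitals mark matches to the STAT motif TTCNNNGAA, which reads alike on both strands and was the only motif searched.
Il6st: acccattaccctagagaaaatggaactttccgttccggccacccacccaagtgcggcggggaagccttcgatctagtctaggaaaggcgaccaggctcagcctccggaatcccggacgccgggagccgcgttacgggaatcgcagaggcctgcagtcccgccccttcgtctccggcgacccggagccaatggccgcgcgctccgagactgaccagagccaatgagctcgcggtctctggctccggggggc
Stat5a: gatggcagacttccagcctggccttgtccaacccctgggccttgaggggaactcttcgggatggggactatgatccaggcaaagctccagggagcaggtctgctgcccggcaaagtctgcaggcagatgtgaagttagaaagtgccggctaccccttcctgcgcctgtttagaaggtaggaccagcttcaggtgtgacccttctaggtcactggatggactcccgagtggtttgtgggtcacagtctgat
Stat5b: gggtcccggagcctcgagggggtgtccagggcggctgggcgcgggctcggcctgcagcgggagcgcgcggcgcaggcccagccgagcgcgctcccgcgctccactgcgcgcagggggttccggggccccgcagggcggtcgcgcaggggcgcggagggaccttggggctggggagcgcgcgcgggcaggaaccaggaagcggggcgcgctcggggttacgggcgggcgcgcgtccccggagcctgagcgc
Socs3: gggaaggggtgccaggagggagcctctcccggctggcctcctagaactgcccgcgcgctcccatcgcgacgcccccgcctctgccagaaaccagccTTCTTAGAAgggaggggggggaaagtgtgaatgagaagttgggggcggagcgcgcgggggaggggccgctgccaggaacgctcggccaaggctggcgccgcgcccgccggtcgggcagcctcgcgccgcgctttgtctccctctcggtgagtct
All 10 genes matched the table, with 13 windows. Socs3 alone held a match, 1 copy of TTCTTAGAA that begins 154 bases before the annotated start used, within the gene's span. The motif occurred in 7.02% of all 32851 windows of this length. The match is a description of these letters and not a measured binding site. Stat5b, Stat5a and Stat3 follow each other on chromosome 11 with no other gene of the RefSeq table starting between them.

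Il6st encodes gp130 itself. Its brightest probe set, 1452843_at, read 11.27, 11.06 and 11.34 on transgenic arrays 1 to 3, against 10.71, 10.86 and 10.72 on the non-transgenic arrays. Each transgenic value lay above each non-transgenic one. The difference was 0.46 ± 0.10 (SE), or 1.38-fold, with a 95% interval from 0.22 to 0.70 (limma adjusted p = 0.118, and 0.0809 to 0.317 over the alternatives). Of the 25 probe sets this one had the smallest p.

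The other Il6st probe sets gave differences of similar size. For 1421239_at the values were 9.17, 8.91 and 9.09 on transgenic arrays, against 8.62, 8.49 and 8.76 on non-transgenic arrays. 1460295_s_at, whose suffix marks probes shared by more than 1 transcript, read 10.06, 10.04 and 10.04 against 9.53, 9.84 and 9.59. Both separated the groups, with differences of 0.43 ± 0.11 (adjusted p = 0.15) and 0.39 ± 0.10 (adjusted p = 0.152). The fourth, 1437303_at, was more scattered, at 7.31, 7.08 and 7.48 on transgenic arrays against 7.03, 6.91 and 6.13 on non-transgenic arrays. Its difference of 0.60 ± 0.25 became 0.26 with the fluidics station as a block, a comparison that rests on non-transgenic array 1. All 4 were positive in each alternative that gave them a value.

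Summed marker levels of macrophages and monocytes and of fibroblasts separated the groups as well. Those of endothelial cells, neutrophils, lymphocytes and hepatocytes overlapped. The 8 macrophage and monocyte markers were all above 0 in difference, with a median of 0.51, and 8 of 8 had an unadjusted p under 0.05 though none passed adjusted, while 18.2% of all genes had such an unadjusted p. Their summed log2 level was 71.25 to 72.66 on transgenic arrays and 66.91 to 67.67 on non-transgenic arrays. The 8 fibroblast markers were also all above 0, with a median of 0.68, 6 of 8 at an unadjusted p under 0.05 and a summed level of 80.37 to 85.36 against 76.06 to 79.37. The 7 endothelial markers had a median of 0.07 and overlapping sums, 62.76 to 64.33 against 62.62 to 64.09. Smooth muscle and pericyte markers had a median of -0.18, with sums of 61.80 to 63.30 against 61.34 to 65.41, and the median turned to 0.12 with the station as a block. The part of these cells in the Il6st difference was not tested, and in whole tissue a change in cell number and a change in RNA per cell cannot be told apart.

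By a fixed measure of likeness, the root mean square distance over the 6 arrays between values centred on their own mean, 5 of 11015 other genes came closest to Il6st 1452843_at. They were S100a13, Spast, Lars, Psmd7 and Strn, at distances from 0.036 to 0.055. S100a13, a small calcium-binding protein, read 8.70, 8.43 and 8.67 on transgenic arrays against 8.14, 8.24 and 8.14. Spast, a microtubule-severing enzyme, read 8.81, 8.61 and 8.81 against 8.27, 8.33 and 8.30. None of the 5 passed the adjusted threshold (adjusted p = 0.078 to 0.126).

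The ligand-specific chains differed in direction among themselves. Il6ra, the interleukin-6 binding chain, was dim, with means of 3.61 and 3.34 over the 6 arrays, just above the filter at 3.285. 1422270_a_at read 3.56, 3.56 and 3.42 on transgenic arrays against 3.53, 3.56 and 4.04 on non-transgenic arrays. Apart from the single value of 4.04, the arrays of both groups lay close together. The difference was -0.20 ± 0.15 (adjusted p = 0.569), and -0.02 with the station as a block. 1452416_at, at -0.14 ± 0.19, turned to 0.12 with that block.

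Lifr encodes the chain that pairs with gp130 for leukemia inhibitory factor and cardiotrophin-1. The bright probe set 1454984_at read 9.66, 9.59 and 9.41 on transgenic arrays, against 9.71, 10.05 and 9.75 on non-transgenic arrays. The groups did not overlap, although the gap between the nearest arrays was small. The difference was -0.28 ± 0.12, or 1.22-fold lower, with a 95% interval from -0.58 to 0.01 (adjusted p = 0.323), and -0.16 with the station as a block. A second, dimmer probe set, 1425107_a_at, read 4.58, 4.75 and 4.59 against 4.81, 4.86 and 4.82, a difference of -0.19 ± 0.08 (adjusted p = 0.293). The third, 1450207_at, differed by 0.11 ± 0.16 in the other direction, so the 3 Lifr probe sets disagreed in sign.

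Osmr encodes the oncostatin M receptor chain. 1418674_at read 8.20, 7.89 and 7.60 on transgenic arrays and 7.60, 7.36 and 7.55 on non-transgenic arrays. Transgenic arrays 1 and 2 lay above all non-transgenic ones, and transgenic array 3 lay level with the highest of them. The difference was 0.39 ± 0.16, or 1.31-fold, with a 95% interval from -0.0046 to 0.79 (adjusted p = 0.309, and 0.245 to 0.639 over the alternatives). Without transgenic array 1 it was 0.24. The dimmer 1418675_at, from the same source sequence, read 5.84, 5.12 and 4.67 against 5.02, 4.74 and 5.02, a difference of 0.28 ± 0.29 that was -0.03 without transgenic array 1. The summed fibroblast marker level was 80.37, 83.02 and 85.36 on transgenic arrays 1 to 3, against 76.06 to 79.37 on non-transgenic arrays, and the part of fibroblasts in the Osmr difference was not tested.

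Of the kinases, Jak1 is the main one at gp130 and Jak2 serves gp130 and the growth hormone, erythropoietin and prolactin receptors. Jak1 1433805_at read 10.94, 10.86 and 11.16 on transgenic arrays against 11.16, 11.05 and 11.18 on non-transgenic arrays, and the groups overlapped. Its difference was -0.14 ± 0.10, with a 95% interval from -0.38 to 0.10 (adjusted p = 0.529). The other Jak1 probe sets lay at 0.10 ± 0.14 and -0.05 ± 0.14. Jak2 1421066_at read 7.92, 7.88 and 7.97 on transgenic arrays against 7.59, 7.78 and 7.69 on non-transgenic arrays, with no overlap. The difference was 0.23 ± 0.08, or 1.18-fold (95% interval 0.05 to 0.42, adjusted p = 0.229). The second Jak2 probe set, 1421065_at, differed by 0.13 ± 0.07 with overlapping groups.

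Stat3, the principal transcription factor downstream of gp130, showed no separation. 1426587_a_at read 10.94, 10.73 and 10.78 on transgenic arrays against 10.85, 10.70 and 10.81 on non-transgenic arrays. The difference was 0.03 ± 0.09, with a 95% interval from -0.18 to 0.24 (adjusted p = 0.895). 1460700_at gave 0.02 ± 0.07, with an interval from -0.15 to 0.20. The dimmer 1459961_a_at gave 0.14 ± 0.13, and its sign turned, to -0.13, with the station as a block. These values are of Stat3 RNA and say nothing of phosphorylated protein.

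Stat5a and Stat5b are close relatives that act downstream of growth hormone, prolactin and other cytokine receptors. Stat5a 1421469_a_at read 7.02, 7.67 and 7.49 on transgenic arrays, against 8.37, 7.93 and 8.07 on non-transgenic arrays. Every transgenic value lay below every non-transgenic one, with the lowest on transgenic array 1. The difference was -0.73 ± 0.20, or 1.66-fold lower, with a 95% interval from -1.21 to -0.25 (adjusted p = 0.167, and 0.0899 to 0.358 over the alternatives).

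The second Stat5a probe set, 1450259_a_at, read 6.49, 6.62 and 5.96 on transgenic arrays, against 7.50, 7.01 and 7.03 on non-transgenic arrays, again without overlap. It differed by -0.83 ± 0.22, or 1.78-fold lower (adjusted p = 0.161). Non-transgenic array 1 had the highest value on both, and the differences were -0.54 and -0.63 at their smallest when 1 array was left out. With the station as a block, a comparison that rests on non-transgenic array 1, they were -0.98 and -1.15. Without that array they were -0.60 and -0.67. Both Stat5a probe sets were negative, at an unadjusted p under 0.05, in each alternative that gave them a value.

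Stat5b did not show such a gap. 1422103_a_at read 8.75, 8.79 and 8.82 on transgenic arrays against 8.93, 8.79 and 8.79 on non-transgenic arrays. The difference was -0.05 ± 0.07, with a 95% interval from -0.23 to 0.12 (adjusted p = 0.76). 1422102_a_at gave 0.10 ± 0.09, with an interval from -0.12 to 0.32. Whether the Stat5a and Stat5b differences themselves differ was not tested.

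Socs3, the feedback inhibitor that binds gp130, had probe sets that disagreed in size. 1455899_x_at read 7.39, 7.21 and 6.57 on transgenic arrays against 6.66, 5.86 and 6.68 on non-transgenic arrays. Transgenic arrays 1 and 2 lay above all non-transgenic ones, while transgenic array 3 lay among them. The difference was 0.66 ± 0.30, or 1.57-fold, with a 95% interval from -0.08 to 1.39 (adjusted p = 0.352). It was 0.38 without non-transgenic array 2 and 0.39 with the station as a block. 1456212_x_at read 6.72, 6.29 and 5.86 against 6.37, 6.11 and 6.07, a difference of 0.10 ± 0.22, or -0.11 without transgenic array 1. The suffix of both marks probes that also match other sequences.

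**Figure D3:**
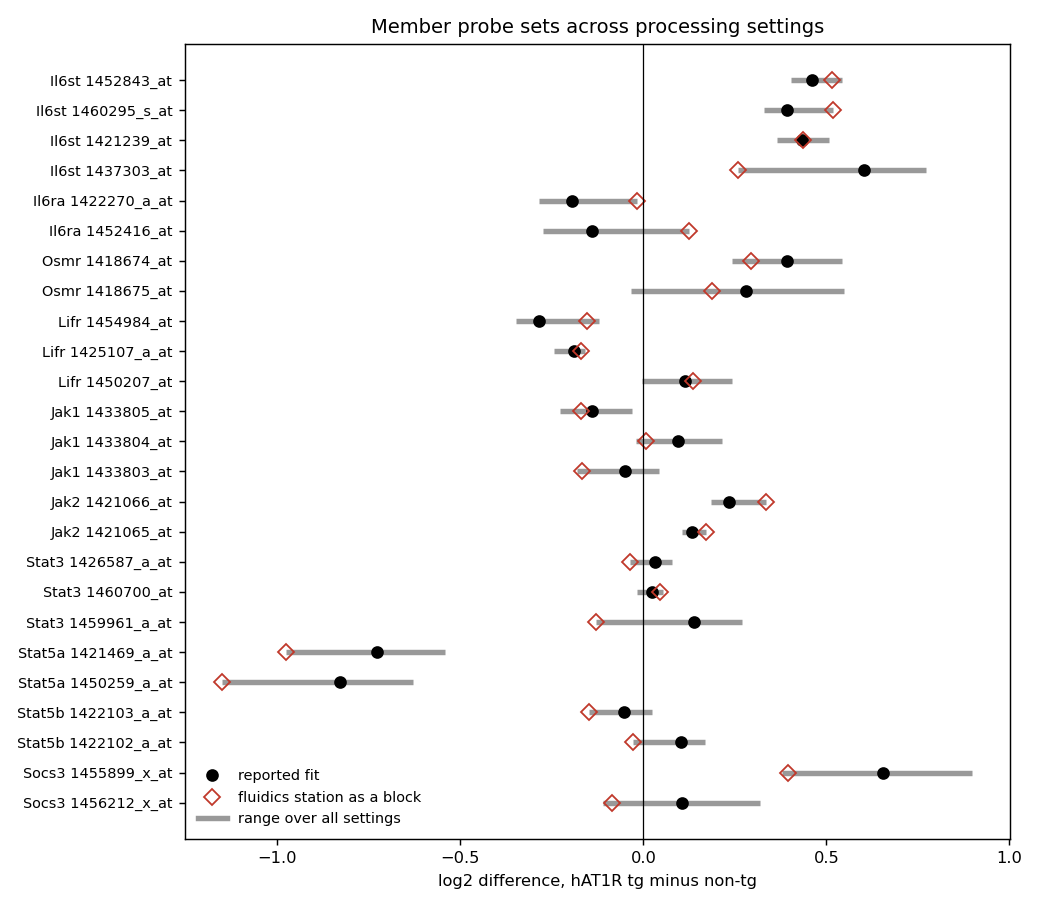
Log2 difference, hAT1R transgenic minus non-transgenic, of each tested probe set under the reported fit (black point) and with the fluidics station as a block (red diamond). The grey bar spans the values under the reported fit and all alternatives that gave one. Il6st stays above 0 and Stat5a below 0, while 1 or more of the probe sets of Il6ra, Osmr, Lifr, Jak1, Stat3, Stat5b and Socs3 cross it.

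The rest of the pathway was read from 8 gene lists, each gene by its brightest tested probe set. None of the genes on these lists passed the adjusted threshold, where 0.227% of all genes did. The median difference over all genes was 0.01. Of 11 gp130 ligands, 3 were bright enough to test, with a median of -0.03. Clcf1, a ligand of the ciliary neurotrophic factor receptor, differed by 0.27 ± 0.15 and Ctf1, cardiotrophin-1, by -0.11 ± 0.11. Clcf1 was dim, at 3.47 to 3.70 on all arrays but transgenic array 2, where it read 4.14. Il11 was dim too, at 3.33 to 3.45. With single arrays left out Clcf1 was at 0.10 to 0.38 and Ctf1 at -0.23 to -0.03. Il6, Lif and Osm lay below the filter, with the brightest probe set of each between 2.14 and 2.36 on every array. The receptors Cntfr and Il27ra, the 2 of 3 partner chains tested, were dim, at -0.15 ± 0.11 and 0.11 ± 0.08. Blocking on the station gave 0.0066 for Cntfr. Of the 6 other JAKs and STATs 3 were tested, with Tyk2 at 0.30 ± 0.24 and Stat2 at -0.25 ± 0.52. With single arrays left out Tyk2 was at 0.10 to 0.45 and Stat2 at -0.56 to 0.27. Blocking on the station gave 0.04 for Tyk2 and -1.29 for Stat2. A second Tyk2 probe set lay at -0.30. No gene of these 3 lists had an unadjusted p under 0.05.

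Among 15 tested inhibitors of 16 listed, the median was 0.03 (-0.03 with Xist as a covariate), and 1 gene above and 2 below 0 had an unadjusted p under 0.05, against 18.2% of all genes. Cish, an inhibitor that Stat5 switches on, read 10.15, 9.71 and 10.37 on transgenic arrays, against 10.58, 10.56 and 10.43 on non-transgenic arrays. The groups did not overlap, and transgenic array 2 was the lowest. The difference was -0.45 ± 0.17, or -0.26 at its smallest with 1 array left out (adjusted p = 0.28). Ptprc, the leukocyte phosphatase CD45, was at 0.31 ± 0.29, with values of 0.04 to 0.48 when single arrays were left out and 0.74 with the station as a block. Of 8 listed Stat5 targets 6 were tested, Cish among them, 3 above and 3 below 0. Igf1, insulin-like growth factor 1, was at 0.31 ± 0.12 (adjusted p = 0.281), or 0.52 when the station was blocked. Its other tested probe sets lay at 0.40, 0.19 and 0.08. Socs2 was at 0.03 ± 0.17, and at -0.08 to 0.18 with single arrays left out.

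The 8 adaptors downstream of gp130 were all tested, with a median of -0.04. Of them 2 above and 1 below 0 had an unadjusted p under 0.05, where 18.2% of all genes did. The scaffold Gab2 was at 0.37 ± 0.11, against 0.11 for its other probe set and 0.21 when the station was blocked, and the adaptor Shc1 at 0.34 ± 0.13, against 0.40. Of 14 other cytokine receptors that use JAKs 8 were tested, with a median of 0.09 and 1 at an unadjusted p under 0.05. This was Il13ra1, a receptor chain for interleukin-13, which read 8.23, 8.79 and 8.88 on transgenic arrays against 8.10, 8.19 and 7.87 on non-transgenic arrays. Its difference was 0.58 ± 0.19 (adjusted p = 0.225), and its 3 other probe sets lay between 0.26 and 0.59. Ifnar1, a type I interferon receptor chain, was at 0.21 ± 0.19, and at 0.03 to 0.32 with single arrays left out. A second Ifnar1 probe set lay in the other direction, at -0.23 ± 0.12.

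**Figure D4:**
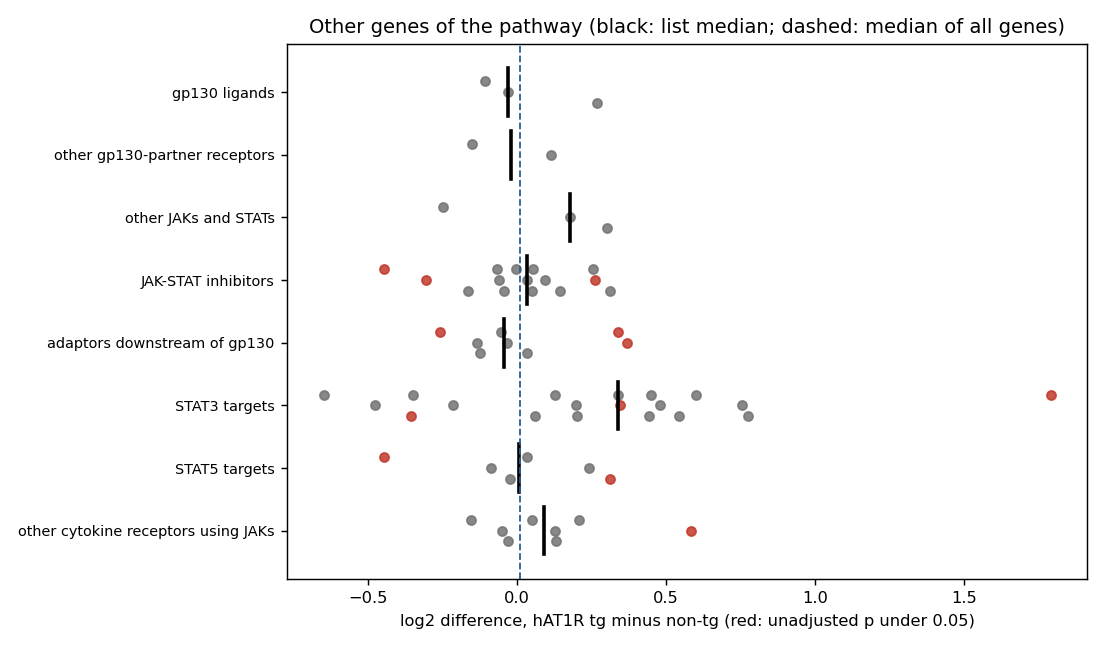
Log2 difference, hAT1R transgenic minus non-transgenic (horizontal axis), of each tested gene of the 8 pathway lists, red at an unadjusted p under 0.05. Black bars are list medians and the dashed line is the median of all genes, 0.01. The STAT3 target list has the median farthest from it, at 0.34, and holds Timp1 at 1.79.

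The STAT3 target list had a median of 0.34, with 19 of 23 genes tested, 14 above 0 and 5 below. Over all genes 5768 of 11016 were above 0. An unadjusted p under 0.05 was reached by 2 of those above 0 and 1 of those below, against 18.2% of all genes. The 5 below 0 were Mt1 at -0.65, Bcl2l1 at -0.48, Pim1 at -0.36, Cebpb at -0.35 and Mt2 at -0.21. Their other tested probe sets lay nearer 0, at -0.21 for Mt1, -0.36 and -0.19 for Bcl2l1, -0.12 for Pim1 and -0.13 for Cebpb. With the station as a block the brightest probe sets of these 5 genes, all but that of Pim1, turned above 0. The list median was 0.31 with that block and 0.22 with Xist as a covariate. Timp1, an inhibitor of matrix metalloproteinases, read 7.26, 5.13 and 4.36 on transgenic arrays against 3.71, 3.52 and 4.14 on non-transgenic arrays. The groups did not overlap, but most of the gap lay on transgenic array 1. The difference was 1.79 ± 0.72 (adjusted p = 0.294), and 0.95 without that array. Serpina3n, an acute-phase protease inhibitor, read 8.10, 6.85 and 5.20 against 6.39, 5.60 and 5.83. Its groups overlapped, with a difference of 0.78 ± 0.71 that was 0.08 without transgenic array 1.

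Transgenic array 1 had the highest value of the 6 arrays for 8 of the 19 STAT3 targets, where it had the highest for 15.2% of all genes. Transgenic array 3 had the highest for 6 of the 19, against 22.9% of all genes. Transgenic array 1 was also the highest for Osmr 1418674_at and Socs3 1455899_x_at. Without transgenic array 1 the median of the list was 0.15, and it was 0.22 to 0.33 when any other array was left out. Lcn2, an iron-binding acute-phase protein singled out after its values were seen, read 8.46, 6.67 and 5.48 on transgenic arrays against 6.20, 6.80 and 5.35. Lcn2 and Serpina3n were spread over a wide range within the transgenic group, with array 3 among the non-transgenic values for Lcn2 and below them for Serpina3n. Of the 4 Il6st probe sets, 1452843_at and 1437303_at were highest on transgenic array 3 and the other 2 on transgenic array 1. The neutrophil markers S100a8 and S100a9, the 2 of 6 above the filter, had their highest summed level on transgenic array 1 too, at 10.31, with 5.82 and 7.31 on the other transgenic arrays and 5.84 to 9.32 on non-transgenic arrays. The 4 hepatocyte markers, whose cell type also makes acute-phase proteins, had their highest summed level on transgenic array 3. The sums were 18.14 to 28.51 on transgenic and 13.36 to 26.28 on non-transgenic arrays. Of the 4, Apoa1 was highest on non-transgenic array 3, at 6.61 against 6.31 on transgenic array 3. Fgg, a fibrinogen chain gene among the 6 STAT3 targets highest on transgenic array 3, read 5.26 there and 2.94 to 3.92 on the other arrays. The part of these cells in the values was not tested.

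**Figure D5:**
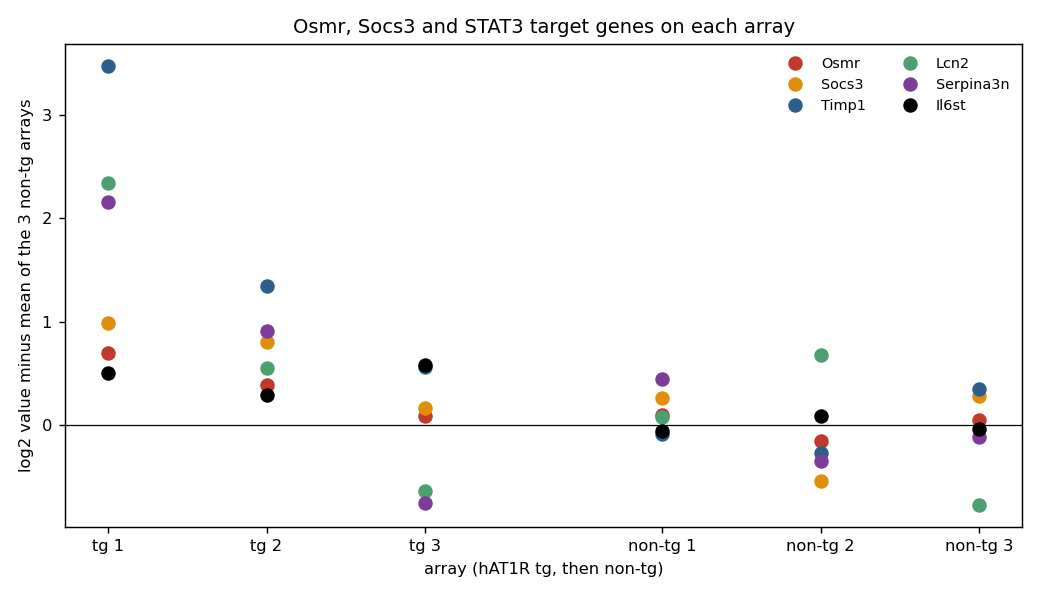
Log2 value minus the mean of the 3 non-transgenic arrays (vertical axis) for 6 genes on each array, the transgenic arrays first. Timp1, Lcn2, Serpina3n, Osmr and Socs3 are highest on transgenic array 1, where Timp1 reads 7.26, while Il6st is similar on all 3 transgenic arrays, at 11.06 to 11.34.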

How the data were processed

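Heart RNA was measured on 6 Affymetrix arrays, 3 per group, grouped by sample title. The deposited log2 values came from GCRMA, a background correction and normalization method, per the submitters' processing notes. The sources used here name neither its version nor later steps. They were used as deposited, so dim transcripts sit near a floor where differences are compressed. The instrument's records, deposited as other text fields, gave only the fluidics station and the typed name.

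Of 45101 probe sets, 64 controls were left out. Names came from the platform annotation, and 34945 probe sets had 1 gene. Probe sets with a mean above log2 3.285 were kept (22518). Groups were compared with limma 3.58.1 in R 4.3.3 (lmFit, eBayes, 2-sided), adjusted by Benjamini-Hochberg over all of them at 0.05, and all SEs are moderated. The fit was tested on simulated data with independent noise and no station or sex effect, with recovery required only for the largest simulated differences. No pseudocount was needed. The number of arrays limits the precision.

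The members, gene lists and alternatives were chosen with earlier results of these data known. Named were all probe sets of the members, the 2 largest differences of each list and the 5 genes nearest in pattern to the smallest-p member. Socs2, Lcn2, Fgg, Il6, Lif, Osm, Il11, S100a8, S100a9, Apoa1 and the STAT3 targets below 0 were added after their values were seen. Windows before annotated starts came from RefSeq tables (GRCm38.p6). Alternatives covered the filter, normalization, variance model, array weights, replicate number, station, Xist level, averaging of probe sets within a gene and each array left out.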

Additional observations from a re-analysis of the deposited data

How the results depend on the processing

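None of the member probe sets or pathway genes passed the adjusted threshold in limma under any of the 18 alternatives, with 5 to 9 member probe sets at an unadjusted p under 0.05, or 3 of 10 genes where probe sets were averaged. Over all probe sets the count of 49 was 15 with no filter on dim probe sets, 143 with the filter at log2 5, 108 with trended variance and 102 with trended and robust variance. It was 2 with the station as a block, 0 with station 2 alone, where the lone non-transgenic array is assumed to vary like the others (3771 at an unadjusted p under 0.05), and 0 with Xist as a covariate (3126). Leaving out single arrays gave 0 to 75, with 75 for transgenic array 1, 5 for non-transgenic array 1 and 0 for each of the other 4 (2532 to 3430 unadjusted). With the replicate number as a block the count was 0 (3324 unadjusted) and the member count 0. Same-numbered arrays did not deviate together (correlations -0.083, -0.174 and -0.0067), and 0 of 6 arrays correlated best with its own number. These correlations cannot show whether same-numbered arrays were prepared together.

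Of the 25 member probe sets, 14 kept their sign throughout. With the station as a block, or station 2 alone, Il6ra 1452416_at was 0.125, Stat3 1426587_a_at -0.036, Stat3 1459961_a_at -0.13, Stat5b 1422102_a_at -0.027 and Socs3 1456212_x_at -0.086. Stat5b was 0.024 as the mean of its probe sets. With single arrays left out, ranges that crossed 0 were -0.27 to 0.082 for Il6ra 1452416_at, -0.034 to 0.55 for Osmr 1418675_at, -0.0042 to 0.24 for Lifr 1450207_at, -0.019 to 0.22 for Jak1 1433804_at, -0.18 to 0.042 for Jak1 1433803_at, -0.031 to 0.078 for Stat3 1426587_a_at, -0.016 to 0.055 for Stat3 1460700_at and -0.11 to 0.32 for Socs3 1456212_x_at. The cause was not tested. Dim probe sets had no value at the filter of log2 5, and averaging within a gene gave 1 value per gene. Signal over background is not given, so dim values carry the least weight.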
